A study of Mus musculus with 33 samples.

Results

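The binding of Tbx5 expressed by itself was measured by chromatin immunoprecipitation and sequencing (ChIP-seq), with the input chromatin of single-factor cells as the background. The experiment holds 6 of the 33 libraries of the series, taken by the names of their columns in the count table: 3 Tbx5 ChIP libraries and 3 input libraries. The 3 ChIP libraries are Tbx5 immunoprecipitates (goat polyclonal antibody C-20) of cells that received a Tbx5 retrovirus alone. The 3 inputs, made with no antibody, come from cells that received Gata4 alone, Mef2c alone or Tbx5 alone, with 1 library for each infection. All 6, and every other library of the series, come from an immortalized neonatal cardiac fibroblast line that expresses large T antigen. That line has the Cd-1 strain background and the alpha-MHC-GFP genotype, and it was exposed to sb431542 and xav939 and collected at day 2 of reprogramming. Other groups were used for comparison: Tbx5 ChIP (4 libraries) from cells with Gata4, Mef2c and Tbx5 together, Gata4 ChIP (4) and Mef2c ChIP (3) from cells with those factors alone, and the inputs (6) of the 3-factor cells. The series' design text calls the libraries of a condition biological replicates. The line is immortalized and the factors are retroviral, and whether replicates came from separate infections is not given in the sources used here.

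Tbx5 is a T-box transcription factor. It is required for heart development, and loss of 1 copy causes Holt-Oram syndrome in people. Together with Gata4, a zinc-finger factor, and Mef2c, a MADS-box factor, it forms a widely used combination for turning fibroblasts into cardiomyocyte-like cells. In ChIP-seq, DNA bound by the factor is recovered in excess of the input, so a bound region shows more reads in the ChIP library than in the input when both are set to a common scale.

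The deposited table gives whole-number read counts in 30815 regions of build mm9, 201 to 1484 bp wide with a median of 234 bp, on 21 chromosomes. Regions are named by position, because no genome or annotation of mm9 was used here and no gene was assigned. The Tbx5 libraries held 485430, 334761 and 424825 counts over the regions. The inputs of Gata4-, Mef2c- and Tbx5-infected cells held 127871, 125181 and 97474. The inputs are therefore shallow, with a median of 10 counts per region summed over all 3. The top 10% of regions took 42.7 to 45.3% of the counts of a Tbx5 library and 23.6 to 25.8% of an input. On log2 of CPM plus 10 (CPM being counts scaled to a common library total), Pearson's r across the regions was 0.86 to 0.89 between Tbx5 libraries, 0.13 to 0.23 between a Tbx5 library and an input and 0.16 to 0.30 between inputs. These are correlations across regions, which are not independent replicates, and depth is shared by all the values of a library.

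Tbx5 expressed alone was higher than input at 5640 regions and lower at 499, of 7330 regions that passed the filter on low counts (edgeR's quasi-likelihood test, adjusted p under 0.05). Of the regions tested, 83.8% were thus called, 76.9% higher and 6.81% lower. The median log2 fold change was 2.16 among the higher regions, 3281 of which exceeded 2, and -1.60 among the lower ones. The size of these counts rests on the scaling. The libraries were scaled with TMM factors taken over all 30815 regions. A fit with factors taken over the regions left by the filter was run first and gave 862 higher and 1385 lower regions (11.8% and 18.9%, or 30.7% in all). The order reported here was chosen after those counts had been seen, because 4895 of the 7330 regions passed the filter through the Tbx5 libraries only. Going from all regions to the filtered ones shifts every log2 fold change by -1.78, and scaling to library totals shifts it by -0.70 and gave 4218 higher and 741 lower. The table covers only selected regions, so it gives relative enrichment among them and fixes no absolute zero.

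The filter also shapes the count, since 4785 of the 5640 higher regions passed it through the Tbx5 libraries only and 497 of the 499 lower ones through the inputs only. With no filter, 6540 of 30813 regions (21.2%) were higher and 2150 (6.98%) were lower, 28.2% in all. Of the 5640 regions, 5304 remained higher without the filter. All 3 Tbx5 libraries lay above all 3 inputs at 5460 of the higher regions, and all 3 lay below at 475 of the lower ones. Over the regions tested these arrangements held at 77.2% and 7.42%. The Tbx5 libraries had a median of 113 counts per higher region, summed over all 3, and the inputs had 12. The coefficient of variation of the 3 Tbx5 libraries had a median of 17.2% over the higher regions.

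**Figure D1:**
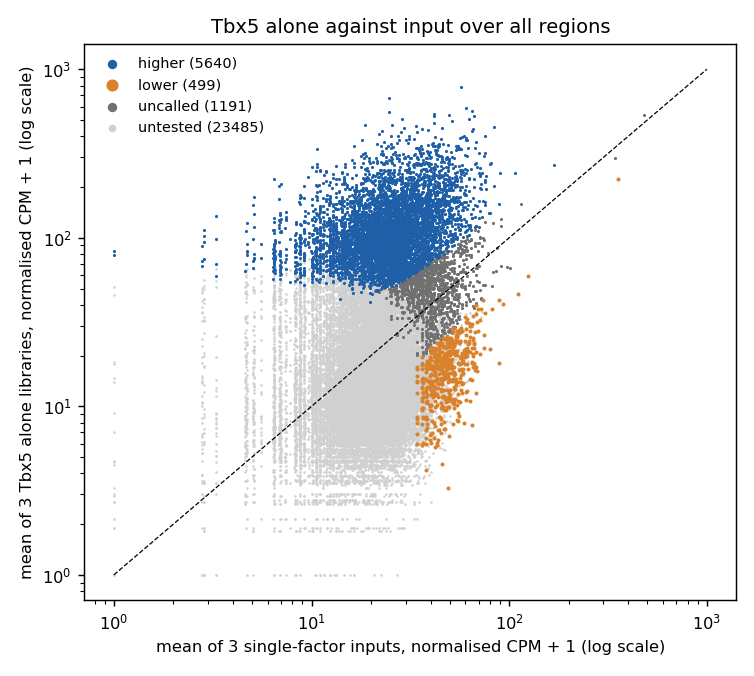
Mean normalised CPM plus 1 of the 3 Tbx5 alone libraries (vertical axis, log scale) against that of the 3 single-factor inputs (horizontal axis, log scale), 1 point per region, with the line of equal values dashed. The 5640 higher regions lie above the line, the 499 lower ones lie below it at the right edge, and the 23485 untested regions fill the low corner.

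The share of reads that fell in the higher regions sets the libraries apart, although the Tbx5 and single-factor input values here are those that chose the regions. The Tbx5 libraries had 59.9, 61.3 and 58.8% of their counts there, and the inputs of Gata4-, Mef2c- and Tbx5-infected cells had 20.6, 19.6 and 22.8%. Other libraries had no part in the choice. In cells with all 3 factors, the Tbx5 libraries had 44.1 to 51.4% of their counts in these regions and their inputs had 19.8 to 21.8%. Gata4 libraries had 18.7 to 21.0% and Mef2c libraries 12.6 to 13.0%, close to or below the inputs.

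The regions with the most Tbx5 signal were mostly wide. At chr2:166224596-166225268, the region with the highest mean, the Tbx5 libraries had 273, 272 and 286 counts and the inputs had 14, 8 and 7. In normalised CPM this was 663, 930 and 762 for Tbx5 and 75.3, 44.4 and 47.8 for input. All 3 Tbx5 libraries were far above all 3 inputs, with a log2 fold change of 3.73 (SE 0.28, edgeR adjusted p = 1.84e-12). The region chr17:73371686-73372265 had 261, 221 and 240 Tbx5 counts and 4 counts in each input. Its mean was 676 ± 68.5 CPM for Tbx5 and 23.7 ± 3.17 CPM for input (SD, n = 3 each), and its log2 fold change was 4.77 (SE 0.31, edgeR adjusted p = 8.7e-14). This region was the second highest in level, and it was also among the 12 largest fold changes of regions of more than median level whose groups did not overlap.

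The next regions completed the 5 highest Tbx5 levels. Tbx5 averaged 585 ± 38.3 CPM and input 59.2 ± 31.7 CPM at chr15:38496672-38497630 (SD, n = 3 each). At chr6:91492764-91493432 the means were 568 ± 89.9 CPM for Tbx5 and 63.6 ± 32.5 CPM for input. At chr15:103135687-103135975, Tbx5 averaged 554 ± 160 CPM and input 23.7 ± 3.17 CPM. Their log2 fold changes were 3.30, 3.12 and 4.48 in that order, and no Tbx5 library overlapped an input at any of them. The last is the narrowest of the 5 at 289 bp, and the others span 580 to 959 bp.

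The 12 regions with the largest fold change, among regions of more than median level whose groups did not overlap, were 204 to 580 bp wide, and 11 of them had 1 to 5 input counts in all, the exception being chr17:73371686-73372265 with 12. Of these, chr12:85955578-85955781 had 113, 115 and 126 Tbx5 counts and 0, 4 and 1 input counts, a log2 fold change of 4.98 (SE 0.43, edgeR adjusted p = 2.01e-11). In 10 of the 12 there were 1 to 3 input counts in all, so their fitted fold depends on the prior count and a ratio of summed counts is given instead. At chr7:133647177-133647380 the Tbx5 libraries had 60, 35 and 50 counts and the inputs 0, 0 and 1, a ratio of 68.9 (95% exact interval 12.2 to 2739). The region chr5:33972352-33972555 had 50, 33 and 36 Tbx5 counts and 0, 1 and 0 input counts, a ratio of 56.5 (9.95 to 2251). The other 8 of these had ratios of 30.4 to 53.2, with lower bounds of 8.24 to 12.4. The bounds cover counting error only, and with inputs this shallow the order of these regions is not resolved.

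**Figure D2:**
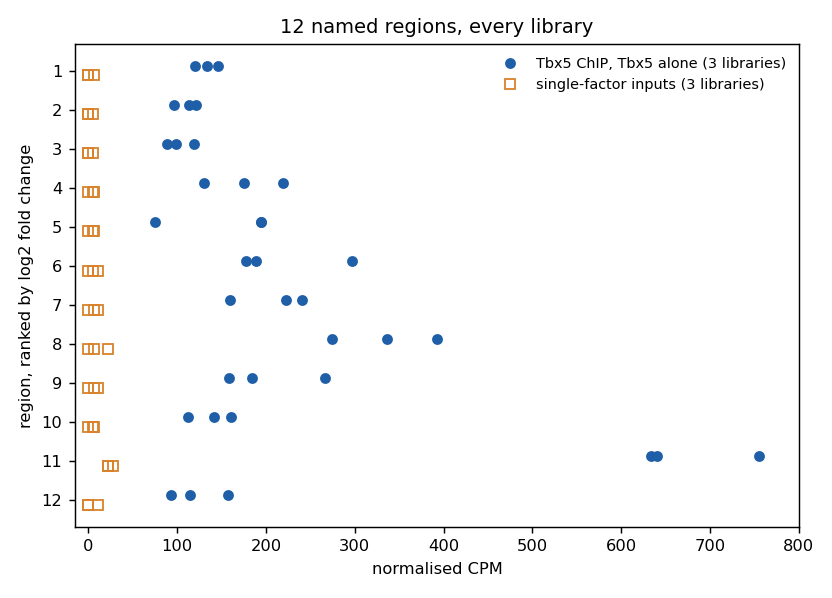
Normalised CPM (horizontal axis) in each Tbx5 alone library (filled circles) and each single-factor input (open squares) at the 12 regions with the largest fitted log2 fold change among regions of more than median level whose groups did not overlap, ranked from 1 at the top. Every Tbx5 library lies to the right of every input at all 12, and the widest gap is at rank 11, the region chr17:73371686-73372265.

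At 2 of the 5640 higher regions no input had a read. The region chr7:35904035-35904327 had 32, 20 and 33 Tbx5 counts, and a 226 bp region of chromosome 18 had 26, 31 and 30. Set against a floor of 3 counts over the 3 inputs, Tbx5 was at least 13.5-fold higher at the region of chromosome 7 and at least 13.8-fold higher at that of chromosome 18. These 2 are among the 5 largest fitted folds, in no resolved order, of regions higher than Gata4 alone, higher than Mef2c alone and enriched in the 3-factor cells; the other 3 are chr7:133647177-133647380, chr5:33972352-33972555 and chr7:121344292-121344495. At the region of chromosome 18 the enrichment in the 3-factor cells (edgeR adjusted p = 0.00621) had an adjusted p of 0.187 with library totals, 0.0602 without the summed inputs 1 and 3 of those cells and 0.0848 without their summed inputs 2, 4 and 5.

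Some of the higher regions lay in short runs. Taking higher regions at most 10 kb apart, 4272 stood by themselves, and there were 530 runs of 2, 70 of 3, 17 of 4 and 6 of 5. No run counts over all regions tested are given here, so these have no background. Among the 6 runs of 5, the one with the highest median fold was chr8:123059542-123062815, with 5 regions in 3.27 kb whose log2 fold changes were 2.79 to 3.64. Its regions summed to 1158, 1022 and 1066 CPM in the Tbx5 libraries and 113, 88.8 and 137 CPM in the inputs. A run of 5 on chromosome 18 spanned 9.56 kb, with 461, 653 and 448 CPM for Tbx5 and 91.4, 105 and 109 CPM for input. The run chr15:36708652-36722793 had 532, 472 and 480 CPM for Tbx5 and 96.8, 105 and 81.9 CPM for input. In 3-factor cells Tbx5 was called higher than input at all 5 regions of the first and second runs and at 4 of the third.

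Over all regions, tested or not, higher calls were more frequent in wider regions. Of the 5505 regions at the minimum width of 201 bp, 0.727% were called higher, against 15.3% at 202 to 299 bp, 28.0% at 300 to 399 bp, 39.0% at 400 to 499 bp and 47.5% at 500 bp or more. The lower calls climbed too, with 0.0908% at 201 bp and 9.81% at 500 bp or more. A wider region holds more reads and passes the filter more easily. Over the regions tested, higher calls were 40 of only 56 at 201 bp and 2460 of 2782 at 202 to 299 bp. They were 1552 of 2060 at 300 to 399 bp, 853 of 1249 at 400 to 499 bp and 735 of 1183 in the widest class. From 202 bp up, the share of tested regions called higher thus fell with width. Levels were also taken per kb. Median Tbx5 levels were 52.8, 64.1, 77.2, 99.7 and 124 CPM per kb over the 5 width classes, narrow to wide, and median input levels were 79.1, 81.1, 75.3, 72.8 and 71.5 CPM per kb. The Tbx5 level per kb was thus higher in each wider class, and the input level was lowest in the widest. The way the regions and their widths were selected is not given in the sources used here, and its part in this pattern was not tested.

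**Figure D3:**
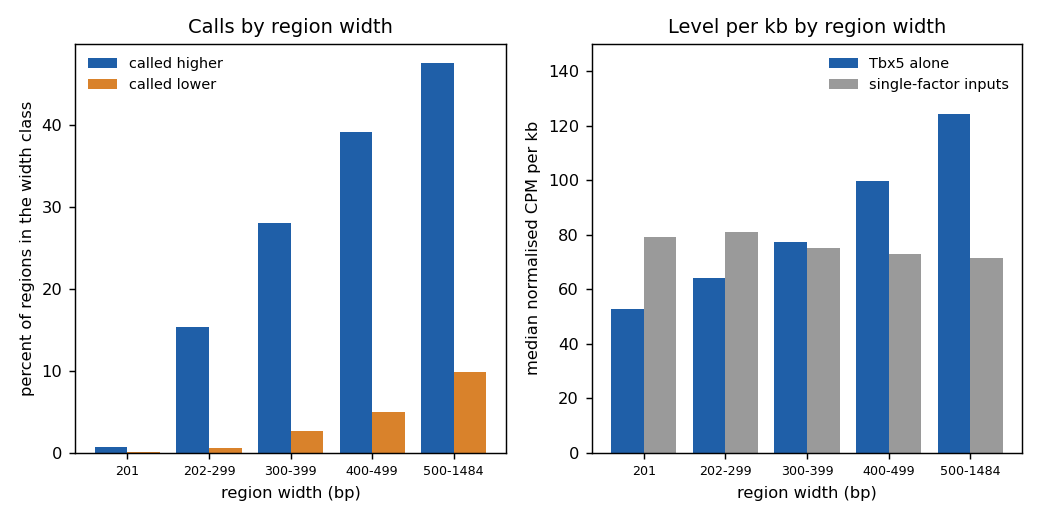
Percent of all regions in a width class called higher or lower for Tbx5 alone over input (left), and the median normalised CPM per kb of Tbx5 alone and of the single-factor inputs (right), by region width in bp. Higher calls reach 47.5% in the widest class, where the Tbx5 level per kb is 124 and the input level 71.5.

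Within the higher regions, width was smaller where folds were larger. Ranked by fold and cut into 4 bins of 1410 regions, the bin of the smallest folds had a median width of 349 bp and that of the largest folds 282 bp. The nearest other region lay at a median of 8.23 kb for higher regions and 14.9 kb for lower ones, against 12.8 kb over all regions. Another region of the table lay within 10 kb of 54.3% of higher regions, 39.3% of lower ones and 43.9% of all. Over the regions tested the share was 53.1%, close to that of the higher ones.

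Chromosome X held few calls. There 44 of 611 regions were higher (7.20%), against 13.8% on chromosome 16 and 22.8% on chromosome 19, the lowest and highest of the autosomes. Levels on X were low in both kinds of library. Median Tbx5 levels on X were 9.71, 6.84 and 10.7 CPM, and on the autosomes 17.0, 17.1 and 18.7. Median input levels on X were 10.8, 11.1 and 6.83 CPM, and on the autosomes 21.5, 22.2 and 20.5. Only 46 of the X regions passed the filter and 44 of those 46 were called higher, so the low share on X goes with low levels in ChIP and input alike. No region of Y was tested.

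The lower regions had high input levels, which helped to choose them, since 497 of the 499 passed the filter through the inputs only. Their median level was 16.0 CPM in Tbx5 alone, near its median of 16.4 CPM over all regions, and 46.5 CPM in the single-factor inputs, against 20.4 CPM over all regions. In the inputs of 3-factor cells, which had no part in the choice, the same regions had a median of 32.7 CPM, against 20.3 CPM over all regions. The lower regions were also wider, with a median of 407 bp against 234 bp over all regions. All regions of 400 to 499 bp had a median of 32.3 CPM in the single-factor inputs, so width and input level are not separated here. When the input of Tbx5-infected cells was the only input, 83 of 454 lower regions tested were still lower, and 4078 of the 5640 higher regions were still higher. In that fit the lone input is assumed to vary like the Tbx5 libraries. The log2 fold change there was above 0 at only 3 of the 454, so nearly all kept the lower direction. Just 1 lower region met the criteria for naming: chr2:134740309-134741311, 1003 bp wide. It had 31, 12 and 22 Tbx5 counts and 31, 18 and 15 input counts, or 75.3, 41.0 and 58.6 CPM for Tbx5 and 167, 99.9 and 102 CPM for input. The log2 fold change was -1.11 (SE 0.32, edgeR adjusted p = 0.00185), and without the input of Gata4-infected cells it was -0.80 with an adjusted p of 0.0679.

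The 3 inputs were not alike, and the input of Tbx5-infected cells stood apart at 2 of the 5 regions with the highest mean input. At chr2:77828299-77828584 the Tbx5 libraries had 78, 70 and 88 counts, and the inputs of Gata4-, Mef2c- and Tbx5-infected cells had 97, 77 and 16. At chr2:77757143-77757404 the Tbx5 libraries had 122, 88 and 110 counts, and the inputs 86, 81 and 17 in that order. Tbx5 was therefore lower than the 3 inputs pooled at the first of these (log2 fold change -0.77, edgeR adjusted p = 0.0121) and had more normalised CPM than its own input at both. Without the input of Gata4-infected cells, that of Mef2c-infected cells or Tbx5 library 2, the first difference had an adjusted p of 0.311, 0.123 and 0.0632 in that order. Against its own input alone the log2 fold changes were 0.98 (edgeR adjusted p = 0.0545) and 1.32 (edgeR adjusted p = 0.00561). The inputs of the 3-factor cells differed too, with 54, 85 and 45 counts at chr2:77828299-77828584 in libraries 1, 3 and 6 and 9, 28 and 13 in libraries 2, 4 and 5. By library total these were 289, 305 and 272 CPM, and 37.9, 144 and 43.1 CPM. Library 4 thus lay between the others, although libraries 2, 4 and 5 agreed within sampling noise over all regions and were summed. With 1 library per infection, the infected factor and the library cannot be told apart.

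The remaining regions of high input were on X and on chromosome 2. At chrX:166417917-166418386, the region with the most input reads, Tbx5 had 566, 434 and 597 CPM and input 489, 361 and 587 CPM. The groups overlapped and the difference did not pass the test (log2 fold change 0.11, SE 0.21, edgeR adjusted p = 0.609). At chrX:166434920-166435175, Tbx5 averaged 269 ± 40.8 CPM and input 167 ± 40.3 CPM (SD, n = 3 each; log2 fold change 0.61, edgeR adjusted p = 0.0167). Its adjusted p was 0.11 without Tbx5 library 3, 0.0746 without the input of Mef2c-infected cells, 0.0562 without that of Tbx5-infected cells, 0.12 with DESeq2 and 0.112 in 1 fit of all groups. The 3 regions tilted most to the input of Tbx5-infected cells had reads there and none in the other inputs: chr14:21465016-21465216 had 9, chr12:111121947-111122160 had 8 and chr10:110575150-110575406 had 6 counts. The Tbx5 ChIP libraries had 2, 6 and 5 counts at the region of chromosome 14, 0, 0 and 1 at that of chromosome 12 and 4, 3 and 3 at that of chromosome 10. None of the 3 passed the filter, so none was tested.

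Close to the threshold the groups nearly met. The region chr4:150044853-150045248, just inside, had 22, 15 and 17 Tbx5 counts and 7, 4 and 1 input counts (edgeR adjusted p = 0.0499). Also just inside was chr3:88968564-88968845, with 65.6, 75.2 and 64.0 CPM for Tbx5 and 16.1, 27.8 and 68.3 CPM for input, where the input of Tbx5-infected cells lay within the Tbx5 range. Just outside were chr2:3156573-3156906, with 24, 23 and 18 Tbx5 counts and 4, 8 and 4 input counts (edgeR adjusted p = 0.0501), and chr2:30532404-30532826, with 41, 14 and 24 Tbx5 counts and 7, 8 and 5 input counts (edgeR adjusted p = 0.0505).

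Whether these regions also carried Tbx5 in the presence of the other factors was asked in libraries that share no sample with the comparison above. In cells with Gata4, Mef2c and Tbx5 together, Tbx5 ChIP was higher than the inputs of those cells at 10043 of 28447 regions tested (35.3%) and lower at 9468 (33.3%), 68.6% in all. Scaling to library totals turned that split to 6669 higher and 13055 lower, a shift of -0.66 in log2 fold change. Of the 5640 regions higher for Tbx5 alone, 5635 were tested, 5205 (92.4%) were higher again and 68 were lower. Among all regions tested for Tbx5 alone, 6021 of 7324 (82.2%) were higher in the 3-factor cells, and among those not called, 716 of 1191 (60.1%). The median log2 fold change in the 3-factor cells was 1.80 for the higher regions, 1.66 for all regions tested for Tbx5 alone and 0.04 for all regions tested in the 3-factor cells. The 5205 regions were also 86.4% of the 6021 that were higher in 3-factor cells among regions tested in both.

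The size of the enrichment ran in parallel. Over the 4 bins of higher regions by their fold for Tbx5 alone, 82.9, 92.4, 96.4 and 97.7% of those tested were higher in the 3-factor cells, low to high. The median log2 fold changes there were 1.55, 1.75, 1.89 and 2.11. The lower regions did not carry over in this way: of 498 tested, 157 were lower in the 3-factor cells and 100 were higher, with a median log2 fold change of -0.14.

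**Figure D4:**
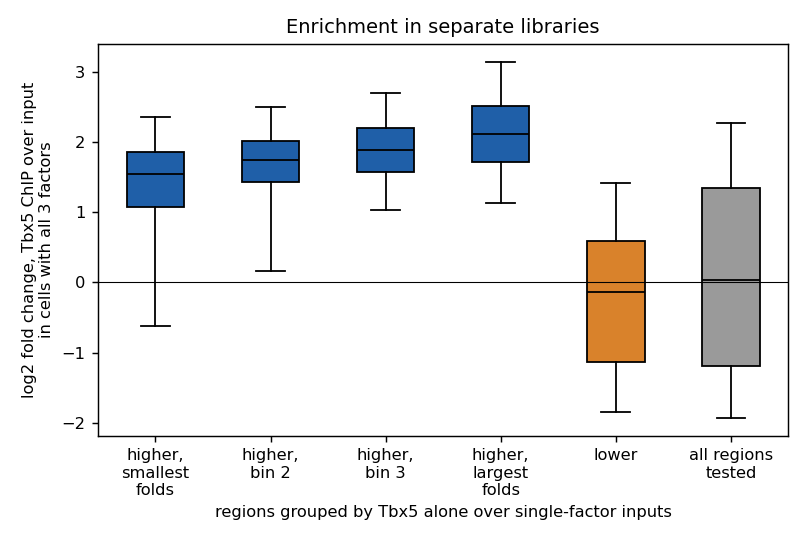
Log2 fold change of Tbx5 ChIP over input in cells with all 3 factors (vertical axis), for the 4 fold-change bins of the regions higher for Tbx5 alone, for the lower regions and for all regions tested. Boxes give the quartiles and median and whiskers the 5th and 95th percentiles; the medians climb over the bins at 1.55, 1.75, 1.89 and 2.11, and lie at -0.14 and 0.04 in the last pair.

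The strongest regions kept a high Tbx5 level in the 3-factor cells. At chr2:166224596-166225268 Tbx5 averaged 429 ± 111 CPM (SD, n = 4) and input 49.8 ± 8.06 CPM (SD, n = 3 after libraries that agree within sampling noise were summed). At chr17:73371686-73372265 the means were 351 ± 93.7 CPM for Tbx5 and 37.3 ± 3.53 CPM for input. The log2 fold changes there were 3.0 and 3.14 (edgeR adjusted p = 1.48e-10 and 1.67e-10). An exception among the 12 regions of the plot of CPM by library was chr3:104324568-104324771. It had 72, 64 and 49 counts for Tbx5 alone and 0, 1 and 1 in the single-factor inputs, but averaged 33.9 ± 30.2 CPM for Tbx5 in the 3-factor cells and 14.9 ± 3.50 CPM in their inputs (log2 fold change 1.19, edgeR adjusted p = 0.0429). Without library 4 of that Tbx5 group its log2 fold change was 0.38 with an adjusted p of 0.357.

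The difference between the enrichment alone and the enrichment with all 3 factors was then tested in 1 fit of the 4 groups. It passed at 1560 of 28673 regions (5.44%), of which 660 (2.3%) had a larger enrichment alone and 900 (3.14%) a larger one with all 3 factors. Among the 5640 higher regions the difference was larger alone at 337 and larger with all 3 at 7. Among the 499 lower regions it was larger with all 3 at 166. The difference includes the libraries that chose these regions, which favours those directions, so the counts are descriptions. The count was 2736 without library 4 of Tbx5 in 3-factor cells, 653 without the summed inputs 2, 4 and 5 of those cells and 806 without their summed inputs 1 and 3. It was 850 without the input of Gata4-infected cells and 897 without that of Tbx5-infected cells. At chr17:73371686-73372265 the difference was 1.71 (SE 0.44, edgeR adjusted p = 0.0167) on the log2 scale, larger alone. Its adjusted p was 0.0794 without the input of Gata4-infected cells, 0.0734 without that of Mef2c-infected cells and 0.0525 without the summed inputs 2, 4 and 5 of 3-factor cells. At the 1003 bp region chr2:134740309-134741311 it was -2.48 (SE 0.41, edgeR adjusted p = 0.000679), since Tbx5 there averaged 184 ± 47.5 CPM in the 3-factor cells and 67.4 ± 7.6 CPM in their inputs.

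Tbx5 was also set against the other factors expressed by themselves, which differ in antibody as well as in factor. Tbx5 alone was higher than Gata4 alone at 6771 of 18790 regions tested (36%) and lower at 6233 (33.2%), 69.2% in all. Against Mef2c alone it was higher at 7976 of 18653 (42.8%) and lower at 8817 (47.3%), 90% in all. These comparisons share the Tbx5 libraries that chose the 5640 higher regions, so what follows for those regions is a description. Of 5639 tested, 4790 (84.9%) were higher than Gata4 and 6 were lower. Among all regions tested for Tbx5 alone over input, 5103 of 7129 (71.6%) were higher than Gata4. Gata4 library 4 was the shallowest of its group with 222761 counts. The top 10% of regions took 21.2% of its counts, against 36.2 to 39.3% in the other Gata4 alone libraries. Without it, 4873 of 5636 higher regions tested were higher than Gata4 and 119 were lower. Of 5639 tested against Mef2c, 4899 (86.9%) were higher for Tbx5 and 431 were lower. Among all regions tested for Tbx5 alone over input, 5377 of 7067 (76.1%) were higher than Mef2c.

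At the higher regions the median level was 104 CPM for Tbx5 alone, 81.1 CPM for Tbx5 with all 3 factors, 22.2 CPM for Gata4 alone, 17.5 CPM for Mef2c alone and 23.7 CPM for the single-factor inputs. Gata4 and Mef2c thus lay at or under the level of input at the middle of this list. That order is not particular to the list. Over all regions the medians were 18.9 CPM for Gata4 alone, 15.5 CPM for Mef2c alone and 20.4 CPM for the single-factor inputs. Higher than both other factors were 4329 regions (76.8%), with median levels of 112 CPM for Tbx5, 19.2 CPM for Gata4 and 14.7 CPM for Mef2c. A group of 567 was higher than Mef2c and did not differ from Gata4 by the test, with medians of 79.4 CPM for Tbx5, 59.3 CPM for Gata4 and 21.0 CPM for Mef2c. Another 267 were higher than Gata4 but lower than Mef2c, with medians of 91.1 CPM for Tbx5, 23.5 CPM for Gata4 and 257 CPM for Mef2c.

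**Figure D5:**
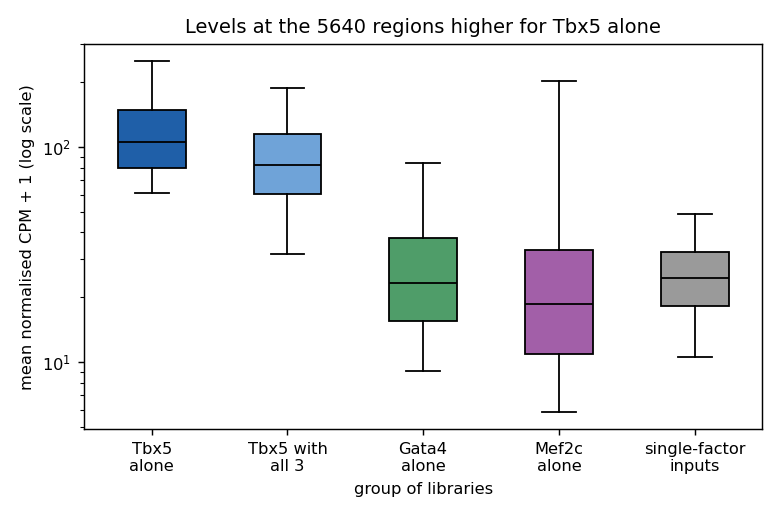
Mean normalised CPM plus 1 (vertical axis, log scale) at the 5640 regions higher for Tbx5 alone, in 5 groups of libraries; boxes give the quartiles and median and whiskers the 5th and 95th percentiles. Median levels are 104 CPM for Tbx5 alone and 81.1 CPM for Tbx5 with all 3 factors, and 17.5 to 23.7 CPM for the other 3 groups, of which Mef2c alone has the longest upper whisker.

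At the 5 regions with the most Tbx5 signal, which were chosen for that signal, the other factors expressed alone lay far below Tbx5. At chr2:166224596-166225268, where Tbx5 alone averaged 785 ± 135 CPM (SD, n = 3), Gata4 alone averaged 24.2 ± 21.4 CPM (SD, n = 4) and Mef2c alone 23.1 ± 3.95 CPM (SD, n = 3). The log2 fold change of Tbx5 was 5.04 over Gata4 (edgeR adjusted p = 8.59e-06) and 4.85 over Mef2c (edgeR adjusted p = 1.24e-25). At chr15:103135687-103135975, Gata4 alone reached 69.2 ± 32.2 CPM, the highest Gata4 mean of the 5 regions with the most Tbx5 signal, and Tbx5 was 2.90 higher on the log2 scale (edgeR adjusted p = 6.58e-05). The single-factor inputs averaged 23.7 ± 3.17 CPM there (SD, n = 3), and Gata4 alone over input was not tested.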

How the data were processed

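The authors deposited raw counts: whole numbers of ChIP-seq reads in each region for all 33 libraries, not normalised. Per the submitters' processing notes, FastQC, Bowtie2 2.2.4 and featureCounts were used, and the build was mm9; how regions were selected and how duplicates were handled is not given in the sources used here.

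Groups follow the labels. Inputs of 3-factor cells that agree within sampling noise by chi-square (1 and 3; 2, 4 and 5) were summed. Each comparison used edgeR 4.0.16 (robust glmQLFit, glmQLFTest, two-sided) in R 4.3.3, with filterByExpr (minimum count 10, minimum total 15). For Tbx5 alone over input this meant 43.2 CPM in at least 3 libraries. The CPM needed follows library depth, so it differed in the other comparisons, which tested more regions. Benjamini-Hochberg adjustment was over all regions tested, with a threshold of 0.05. The SE is the log2 fold change divided by the square root of F. TMM factors were taken over all regions before the filter. The design did not state that order; factors over the filtered regions were run first, and the order was changed after their counts were seen. Normalised CPM are counts over TMM-scaled totals of all samples. Floors (3 counts over a group) and intervals (95%, Clopper-Pearson) cover counting error only. Regions named were the 12 largest and 6 smallest fold changes with groups that did not overlap and a level above the median. Only 1 lower region met this. Also named were the 5 highest in Tbx5 and in input and the 3 most tilted to the input of Tbx5-infected cells. To these were added 5 shared with other contrasts and 2 on each side of the threshold. Of the 6 runs of 5 regions, tied as longest, the 3 with the highest median fold were described. Members, lists and comparisons were chosen with earlier results of these data known. The fits were also run on simulated counts of filtered regions, with equal numbers raised and lowered. That simulation does not bear on the choice of scaling. DESeq2 1.42.0 was an alternative. Gene lists and motifs were not run, for want of mm9 sequence.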

Additional observations from a re-analysis of the deposited data

Results flagged for a closer look

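A sample far from the others of its group was found in 6 of 42 sets of 4 values looked at. All sets came from the Tbx5 libraries of 3-factor cells or the Gata4 alone libraries, so they are not independent. Chance gives about 1 in 20 for a single set, and the 6 cannot be weighed against that rate. In cells with all 3 factors, Tbx5 library 4 had 79.04 CPM at chr3:104324568-104324771, against 16.4 to 22.8 CPM in the other Tbx5 libraries. The same library had 569.3 CPM at chr15:38496672-38497630, against 313 to 347 CPM, and 72.86 CPM at the region of chromosome 18 with no input read, against 39.8 to 44.4 CPM. Tbx5 library 5 of those cells had 340.6 CPM at chr6:91492764-91493432, against 485 to 501 CPM. Gata4 alone library 4 had 86.16 CPM at that region, against 17.4 to 27.2 CPM, and 15.39 CPM at chr5:149364199-149364521, against 21.3 to 21.7 CPM.

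The enrichment of Tbx5 differed between cells with Tbx5 alone and cells with all 3 factors at 1560 of 28673 regions (5.44%, edgeR's quasi-likelihood test of the difference). It differed at 8 of 19 named regions looked at. Those 19 were chosen by fold or level in the Tbx5 alone libraries and their inputs, which the difference also uses. That choice favours a larger enrichment alone, and the reverse at the lower region chr2:134740309-134741311, so the 8 are descriptions. On the log2 scale, alone minus with all 3, the difference was 2.292 at chr12:85955578-85955781 (adjusted p = 0.026), 1.707 at chr17:73371686-73372265 (adjusted p = 0.0167) and -2.476 at chr2:134740309-134741311 (adjusted p = 0.000679). At 5 regions with 0 to 3 single-factor input counts only the adjusted p is given, and the enrichment was larger alone at each. It was 0.03761 at chr5:33972352-33972555, 0.007764 at chr3:104324568-104324771, 0.03257 at chr10:83903259-83903633, 0.004064 at the region of chromosome 18 and 0.007016 at chr7:35904035-35904327. The calls at chr5:33972352-33972555, chr3:104324568-104324771, chr10:83903259-83903633, chr12:85955578-85955781 and chr17:73371686-73372265 were lost without the input of Gata4-infected cells, with adjusted p of 0.159, 0.0566, 0.2, 0.17 and 0.0794 in that order. All but the second of these were also lost without the summed inputs 2, 4 and 5 of the 3-factor cells.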

How the results depend on the processing

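For Tbx5 alone over input, the 6139 calls (5640 higher, 499 lower) became 2247 (862 and 1385) with TMM factors over the filtered regions, the order run first and added to the alternatives after the data were seen. Of the 5640, 862 stayed higher there and 26 were lower. With all inputs as 1 arm, 14691 of 22774 regions tested (64.5%) were called, 6665 of them lower. Lower calls were also 2150 of 30813 with no filter, 2293 of 30764 in 1 fit of all groups and 266 of 7330 against a 2-fold change. Leaving out 1 library gave 3087 to 8998 calls, 2934 to 6736 higher and 153 to 2262 lower; the low counts came without any 1 Tbx5 library (3087, 3220 and 3170), when 3305 to 3429 regions passed the filter, and 99.4 to 99.7% of the higher regions then tested remained higher. The share of tested regions called was 93.3 to 93.9% without a Tbx5 library and 51.2 to 55.0% without an input. Leaving out 1 library gave 9524 to 14039 calls against Gata4 (52.0 to 82.6% of regions tested) and 15830 to 18320 against Mef2c (80.5 to 88.6%). It gave 15433 to 20529 for Tbx5 with all 3 factors (53.8 to 73.1%) and 653 to 2736 for the difference (2.24 to 9.70%). With input libraries kept separate, Tbx5 with all 3 factors had 11587 calls of 13741 regions tested (84.3%), against 19511 of 28447 (68.6%) in the main fit.

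Same-numbered libraries did not deviate together by correlation (r from -0.02 to 0.05). For the 3-factor groups no different-numbered pairs were set beside these, so pairing by number is not settled there. At chr2:77828299-77828584, library 3 was the highest of its group for Gata4, Mef2c, Tbx5 and input in 3-factor cells. It had 133, 75.5, 99.6 and 305 CPM by library total, in that order. Library 5 was the lowest for Gata4, Mef2c and Tbx5 (11.7, 7.57 and 8.38 CPM), and library 2 for input (37.9 CPM). A replicate block gave 14046 calls of 16987 tested against Gata4 (numbers 1 to 3) and 16651 of 18653 against Mef2c. It gave 14638 of 19114 for Tbx5 with all 3 factors with inputs separate. No paired analysis was possible for Tbx5 alone over input because the single-factor inputs carry no replicate number.

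Directions turned at 9 named regions, 8 for Tbx5 alone over input and 1 for the difference, given as log2 fold changes. At chrX:166417917-166418386 it was -0.59 with library totals, -0.046 with DESeq2, -1.66 with filtered-region factors, -0.052 without the input of Mef2c-infected cells (0.34 without that of Tbx5-infected cells) and -0.16 with the Tbx5-infected input only. With that input only, it was 0.98 at chr2:77828299-77828584, 1.32 at chr2:77757143-77757404 (0.37 with all inputs) and -0.037 at chr3:88968564-88968845. It was -0.081 with library totals at chrX:166434920-166435175. With filtered-region factors it was -1.16 there, -0.89 at chr3:88968564-88968845, -0.73 at chr4:150044853-150045248, -0.87 at chr2:3156573-3156906 and -0.95 at chr2:30532404-30532826. The difference at chr6:91492764-91493432 (-0.09) was 0.16 without the input of Mef2c-infected cells, -0.57 without that of Gata4-infected cells and 0.0050 without that of Tbx5-infected cells. For these turns the cause was not tested. Input depth of 97474 to 127871 counts limits folds at regions with few input reads.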
